A study of Homo sapiens with 4 samples.

Results

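Intergenic long non-coding RNAs are long transcripts that carry no annotated protein-coding frame and are transcribed from loci between protein-coding genes. Those described here were pulled down with beta-catenin from nuclei of HT-29 and CaCo-2, cell lines of human colon adenocarcinoma. They are the transcripts whose deposited class is lincRNA, apart from MALAT1, NEAT1, GAS5, ZFAS1, DANCR, EPB41L4A-AS1 and genes whose names start with SNHG, SNORA, SNORD or SCARNA. That choice uses names and class and no measured value. For HT-29 it gave 133 of the 9880 listed transcripts, with 122 gene names. For CaCo-2 it gave 220 of 11943, with 197 gene names. Together these are 330 distinct transcripts of 19895. The names above removed 27 lincRNA transcripts in HT-29 and 17 in CaCo-2.

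The study has 4 libraries, 1 per group: for each line an input library of nuclear RNA made with no antibody and an RNA immunoprecipitation (RIP) library made with an antibody to beta-catenin. Both lines are labelled as human adenocarcinoma cells with no treatment, and all 4 samples share the isolation of nuclei and the library kit. Levels are in FPKM, fragments scaled to library size and transcript length, so they are per length. The question behind the series is which long non-coding RNAs accompany beta-catenin in these nuclei. No control antibody was analysed here, so RNA that sticks to beads or antibody cannot be told apart from RNA bound with beta-catenin.

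The tables list only transcripts at least 1.5-fold higher in the RIP in the authors' ratio, so a RIP level above input holds for every transcript by construction and is no result. Sequencing depth is unknown from these tables, and with 1 library per group no value has a replicate error and no ratio was tested. Of 12 intestinal epithelium genes 6 were in the table of HT-29 and 5 in that of CaCo-2, among them CDH1, KRT8, KRT18 and KRT19 in both. Their summed levels were 159 FPKM in the RIP and 71.2 in input of HT-29, and 88.8 and 39.0 in CaCo-2. Of 5 fibroblast and 3 endothelial genes neither table held any, and of 5 immune genes CaCo-2 had CD68, at 1.47 FPKM in the RIP and 0.954 in input. A gene that is not listed may still be expressed.

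Beta-catenin is both a junction protein at the cell membrane and, when Wnt signalling stabilises it, a nuclear partner of the TCF/LEF transcription factors. It is often stabilised in colon cancer. Intergenic lncRNAs are mostly expressed at low levels, many stay in the nucleus, and a number of them act as scaffolds that bring proteins to chromatin, while others serve as precursors of microRNAs or encode short peptides that older annotations missed.

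The first sequences shown are 300 bases around the start sites, from 250 before to 50 after, for 3 well-studied genes whose same transcript was listed in both lines and for CRNDE, taken from the RefSeq promoter table of GRCh38.p14. CRNDE is shown as the gene that led the colorectal cancer list in HT-29. Capitals mark the first 50 bases of the RNA. RefSeq start sites need not be those of the listed Ensembl transcripts. OIP5-AS1 lies on the plus strand at chr15:41283740-41284039, MIR17HG on the plus strand at chr13:91347437-91347736, FTX on the minus strand at chrX:74293525-74293824 and CRNDE on the minus strand at chr16:54928837-54929136.
OIP5-AS1: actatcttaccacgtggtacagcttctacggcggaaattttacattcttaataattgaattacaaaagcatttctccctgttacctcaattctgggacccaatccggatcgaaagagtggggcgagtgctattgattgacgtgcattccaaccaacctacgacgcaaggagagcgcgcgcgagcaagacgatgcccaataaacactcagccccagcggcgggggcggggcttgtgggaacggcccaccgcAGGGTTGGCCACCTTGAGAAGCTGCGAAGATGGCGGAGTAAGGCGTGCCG
MIR17HG: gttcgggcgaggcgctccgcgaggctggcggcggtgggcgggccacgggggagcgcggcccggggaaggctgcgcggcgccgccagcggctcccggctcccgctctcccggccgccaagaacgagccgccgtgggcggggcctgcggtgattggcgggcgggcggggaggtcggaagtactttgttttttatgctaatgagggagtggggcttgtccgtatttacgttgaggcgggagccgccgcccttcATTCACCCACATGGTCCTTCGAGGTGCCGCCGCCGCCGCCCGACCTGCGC
FTX: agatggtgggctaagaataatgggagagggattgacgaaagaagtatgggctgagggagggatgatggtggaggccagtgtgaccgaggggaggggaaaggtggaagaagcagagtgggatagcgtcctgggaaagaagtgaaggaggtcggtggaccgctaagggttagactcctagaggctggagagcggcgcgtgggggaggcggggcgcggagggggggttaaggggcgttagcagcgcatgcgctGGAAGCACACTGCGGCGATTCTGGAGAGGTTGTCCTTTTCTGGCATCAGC
CRNDE: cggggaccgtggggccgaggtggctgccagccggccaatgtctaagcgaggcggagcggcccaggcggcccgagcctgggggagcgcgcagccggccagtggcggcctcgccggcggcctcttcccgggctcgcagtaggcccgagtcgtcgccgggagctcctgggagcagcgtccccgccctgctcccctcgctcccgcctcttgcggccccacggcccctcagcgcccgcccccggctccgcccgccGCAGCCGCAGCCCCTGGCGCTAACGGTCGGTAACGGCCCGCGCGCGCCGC

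GC content was 54.3% for OIP5-AS1, 73.0% for MIR17HG, 60.0% for FTX and 80.0% for CRNDE. Over the 44 promoter entries of the 39 member genes found in the RefSeq table the median was 65.0% (quartiles 56.5 and 72.1), against 58.7% over all 35116 entries. The intergenic lncRNAs carry 283 distinct gene names, so the promoter values describe a small part of them. The letters ATCAAAG, a core of the TCF/LEF motif, were searched on both strands. They occurred in 1 of the 44 member entries (2.27%) and in 919 of all entries (2.62%), which is nearly the same share. The entry that held them was KANTR, named LINC01155 in the deposited table and listed by RefSeq as protein-coding, on the plus strand at chrX:53093892-53094191. The match, in capitals, begins 136 bases before the start site.
KANTR: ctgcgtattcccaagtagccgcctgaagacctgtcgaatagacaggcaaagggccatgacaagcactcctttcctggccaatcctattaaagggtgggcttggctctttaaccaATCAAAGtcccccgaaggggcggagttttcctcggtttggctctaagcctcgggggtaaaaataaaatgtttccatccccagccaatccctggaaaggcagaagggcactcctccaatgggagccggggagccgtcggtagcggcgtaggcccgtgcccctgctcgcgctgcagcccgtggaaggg
LINC01155 (ENST00000604369) had 0.581 FPKM in the input of CaCo-2 and 1.85 in its RIP, a log2 ratio of 0.85 after 1 FPKM was added to each. It was at 3.18-fold in plain FPKM and below 2-fold with that pseudocount.

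MIR17HG is shown further because it is a host gene: its RNA carries the hairpins of 6 microRNAs of the miR-17-92 cluster within its RefSeq span. Their better known arms are printed with the seed, bases 2 to 8, in capitals. The deposited values are those of the long host transcript and say nothing of the level of these microRNAs.
hsa-miR-17-5p: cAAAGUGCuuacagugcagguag
hsa-miR-20a-5p: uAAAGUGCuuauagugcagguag
hsa-miR-18a-5p: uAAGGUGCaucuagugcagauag
hsa-miR-19a-3p: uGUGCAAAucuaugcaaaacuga
hsa-miR-19b-3p: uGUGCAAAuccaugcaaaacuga
hsa-miR-92a-3p: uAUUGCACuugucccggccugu
The seed of miR-17-5p is shared by miR-20a-5p, and that of miR-19a-3p by miR-19b-3p.

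Most of the intergenic lncRNAs had low levels in the RIP of both lines. The median RIP level was 1.89 FPKM in HT-29 (quartiles 1.53 and 2.68) and 1.36 in CaCo-2 (1.04 and 1.99), against 2.45 and 1.55 over all listed transcripts. The lowest RIP levels, 1.31 and 0.842 FPKM, were also the lowest of the whole tables. The tables thus start at different levels, so medians and counts of levels are not compared between the lines. Of the 133 transcripts in HT-29, 73 had at most 2 FPKM in the RIP, as had 166 of the 220 in CaCo-2. At least 5 FPKM was reached by 6 in HT-29 (4.51%, against 1975 of all 9880) and by 12 in CaCo-2 (5.45%, against 7.22% of all 11943). Antisense transcripts, the other large lncRNA class, reached 5 FPKM in 16.5% of cases in HT-29 and 4.52% in CaCo-2. The share of intergenic lncRNAs was thus below that of antisense transcripts in HT-29 and slightly above it in CaCo-2. At 7 FPKM in CaCo-2 it was 4.55% (10 transcripts), against 1.86% of antisense and 4.16% of all listed transcripts. At 10 FPKM it was 2.27%, against 1.06% and 2.61%. In CaCo-2 it thus lay above the share of all listed transcripts at 7 FPKM and below it at 5 and 10. None of these differences was tested.

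**Figure D1:**
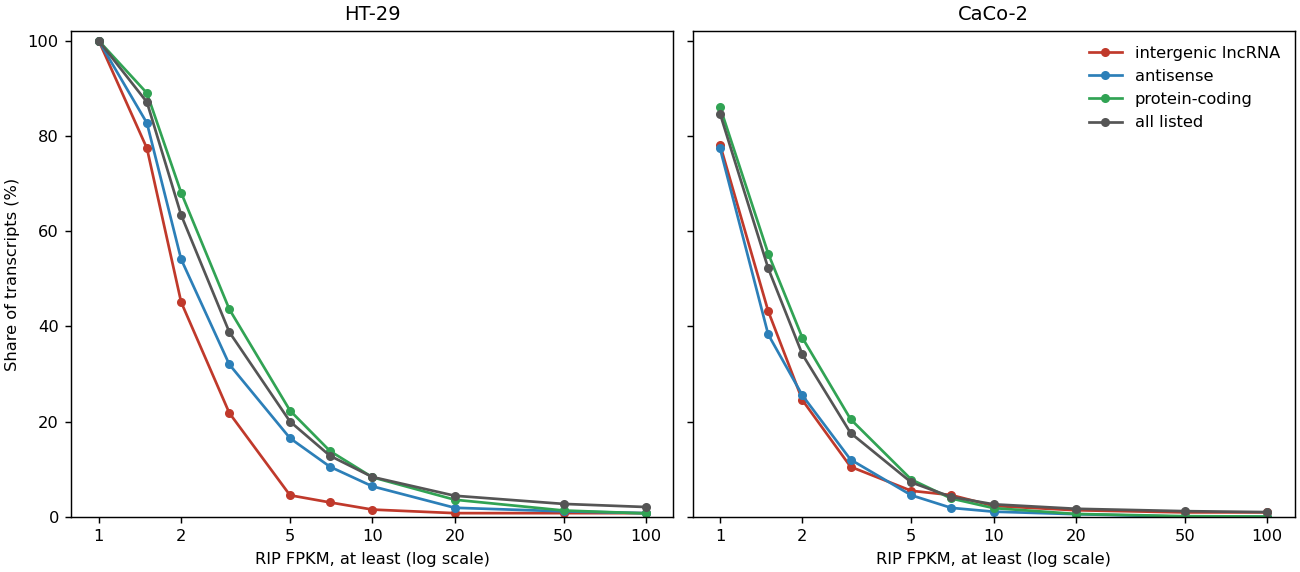
Share of transcripts (y axis, percent) whose RIP level is at least the FPKM on the x axis (log scale), in HT-29 (left) and CaCo-2 (right), for intergenic lncRNAs, antisense, protein-coding and all listed transcripts. At 5 FPKM the intergenic lncRNAs stand at 4.51% in HT-29 and 5.45% in CaCo-2, below the curve of all listed transcripts in each.

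Ratios are of RIP to input on the log2 scale, after a pseudocount of 1 was added to each FPKM. A transcript was kept where either library of its line reached 1 FPKM, and it was counted where the ratio reached 2-fold. All 9880 listed transcripts of HT-29 had at least 1 FPKM in the RIP, so the filter removed none there. In HT-29 all 133 thus passed and the RIP was 2-fold or more above input for 55 (41.4%, 95% Wilson interval 33.3 to 49.9), where the share over all listed transcripts was 56.0%. In CaCo-2, 172 of 220 passed and 60 were at 2-fold or more (34.9%, 28.2 to 42.3), against 40.8% over all that passed. With this pseudocount the shares of the intergenic lncRNAs lay below those of the tables, and in CaCo-2 the interval covers the share of the table. A pseudocount of 1 weighs most on transcripts of a few FPKM. With 0.1 the shares were 72.9% in HT-29 (97 of 133), against 74.8% of all, and 69.8% in CaCo-2 (120 of 172), against 67.2% of all, so the share lay slightly below that of the table in HT-29 and slightly above it in CaCo-2. With a pseudocount of 1, antisense transcripts were at 45.9% and 31.6%, protein-coding transcripts at 53.2% and 42.0%. These intervals cover counting error only.

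Much of the 2-fold group rests on an input of 0. Input was listed at 0 for 28.6% of the transcripts in HT-29 (38 of 133) and for 22.7% in CaCo-2 (50 of 220), where all listed transcripts gave 31.8% and 3466 of 11943. A transcript with input at 0 passes 2-fold as soon as it passes the filter, and 38 of the 55 and 39 of the 60 were of that kind. With input above 0, 2-fold was reached by 17.9% in HT-29 (17 of 95) and by 15.8% in CaCo-2 (21 of 133), where all listed transcripts gave 35.5% and 19.5%. Where both libraries reached 1 FPKM, 4 of 36 (11.1%) and 6 of 41 (14.6%) did, against 25.2% and 13.1%. These shares too rest on the pseudocount. In plain FPKM, over the same transcripts with input above 0, 2-fold or more was reached by 64.2% in HT-29 (61 of 95, Wilson interval 54.2 to 73.1) and by 63.2% in CaCo-2 (84 of 133, interval 54.7 to 70.9), where all listed transcripts gave 66.5% and 61.0%. Both intervals cover the share of the table. Where both libraries reached 1 FPKM, the plain ratio put 13 of 36 (36.1%, 22.5 to 52.4) and 15 of 41 (36.6%, 23.6 to 51.9) at 2-fold, against 46.3% and 35.6%. These plain ratios were added after the data were seen.

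**Figure D2:**
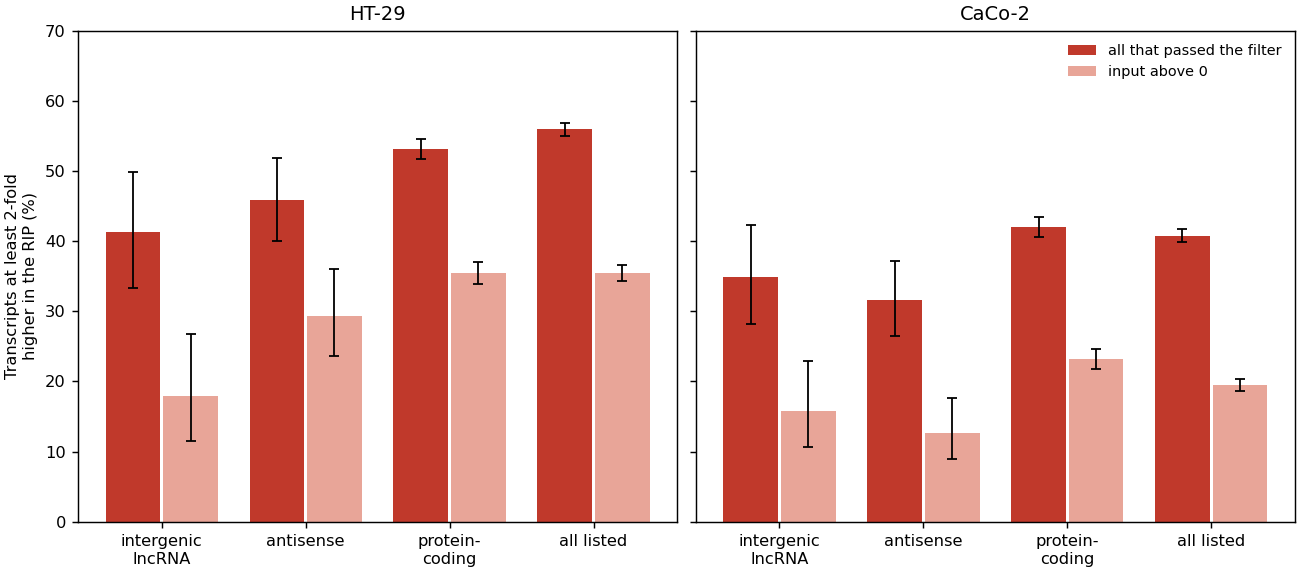
Share of transcripts at least 2-fold higher in the RIP with a pseudocount of 1 (y axis, percent) by class, in HT-29 (left) and CaCo-2 (right), over all that passed the filter (dark bars) and over those with input above 0 (light bars). Error bars are 95% Wilson intervals and cover counting error only. Intergenic lncRNAs stand at 41.4% and 17.9% in HT-29 and at 34.9% and 15.8% in CaCo-2.

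The median log2 ratio was 0.88 in HT-29 (quartiles 0.61 and 1.30) and 0.77 in CaCo-2 (0.54 and 1.08), against 1.14 and 0.82 over all listed transcripts that passed. The highest ratios among intergenic lncRNAs were 2.87 and 3.05. By the q of the authors' deposited table, 0 of the 133 in HT-29 were at 0.05 or less, where 3.08% of all listed transcripts were, and the lowest q of an intergenic lncRNA was 0.169. Among antisense transcripts the shares were 0.376% in HT-29 and 0.00% in CaCo-2, so a low share was not particular to intergenic lncRNAs. In CaCo-2, 1 intergenic lncRNA of 220 (0.455%) was at 0.05 or less, against 2.24% of all listed transcripts.

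That 1 was LINC00273 (ENST00000539813, chromosome 16, 33961052 to 33962503, minus strand, hg19). Its level was 4.48 FPKM before and 8.84 after precipitation, a log2 ratio of 0.84, and the authors' deposited table gives it a q of 0.0263. Its ratio stayed below 2-fold, so the transcript singled out by the authors' test was not among the 60.

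**Figure D3:**
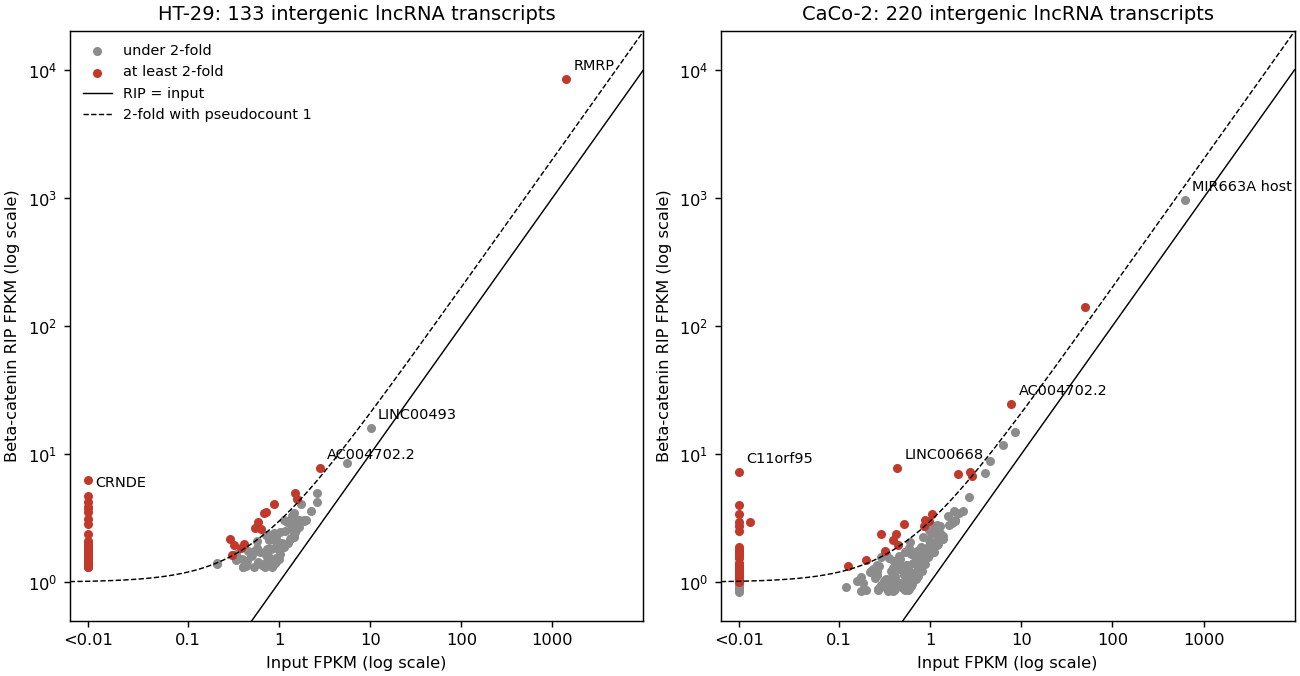
RIP against input FPKM (both axes on a log scale) for the 133 intergenic lncRNA transcripts of HT-29 (left) and the 220 of CaCo-2 (right), each point a transcript, with input under 0.01 drawn at the left edge. The solid line marks equal levels and the dashed line 2-fold with a pseudocount of 1. Most points sit at a few FPKM, and RMRP at 8426 FPKM and the MIR663A host at 957 FPKM lie far above the rest of their tables.

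A few transcripts were abundant, and several of these are not typical lncRNAs. In HT-29, RMRP (ENST00000602361, chromosome 9, 35657748 to 35658015), the RNA of the RNase MRP ribonucleoprotein, had 1406 FPKM in input and a RIP level of 8426, a log2 ratio of 2.58. The authors' deposited table gives RMRP a q of 0.946. LINC00493 (chromosome 20, 18548064 to 18550207) was at 10.1 FPKM against 15.9 in HT-29, a log2 ratio of 0.61. RefSeq now lists LINC00493 as the protein-coding gene SMIM26, a small integral membrane protein. LINC00116 (chromosome 2, 110969107 to 110970400), now MTLN, which encodes the mitochondrial micropeptide mitoregulin, was at 5.53 against 8.50, a log2 ratio of 0.54. Of the 5 highest RIP levels in HT-29, these were the first 3.

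In CaCo-2 the highest RIP levels belonged to the host locus named MIR663A on chromosome 20, next to the centromere. Its transcripts span about the same 20 kilobases of the minus strand and differ widely in level. ENST00000601079 (26168268 to 26190098) had 622 FPKM in input and a RIP level of 957, a log2 ratio of 0.62. ENST00000608487 (26168445 to 26189897) had 50.1 and 141 FPKM, a log2 ratio of 1.48, and ENST00000597267 at 1.82 against 3.58, a log2 ratio of 0.70. The most abundant of the 3 therefore had the lowest ratio, and ENST00000608487 alone passed 2-fold. How the authors' software shared reads between them was not analysed here.

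Next in CaCo-2 came AC004702.2 at 24.5 FPKM in the RIP, RP11-732M18.3 at 14.8 and RP3-430N8.10 at 11.8. Their input levels were 7.74, 8.61 and 6.23 FPKM. RP11-732M18.3 (chromosome 6, 158703295 to 158733390) had a log2 ratio of 0.72 and RP3-430N8.10 (chromosome 22, 31373502 to 31373844) of 0.83. AC004702.2 alone of these passed 2-fold.

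The highest ratio in HT-29 was that of CTC-246B18.10 (chromosome 19, 39832413 to 39832585), whose input was listed at 0 beside 6.31 FPKM in the RIP. It spans 173 nucleotides. It was set beside the 12 small RNA transcripts of the same library whose span was within 10 nucleotides. Their classes were snoRNA, snRNA, misc_RNA, miRNA, rRNA and mitochondrial tRNA. The lowest of them had 5.71 FPKM, and CTC-246B18.10 was at 1.10 times that level. RP11-379F4.6 (215 nucleotides, 2.83 FPKM) and RP11-573G6.10 (239 nucleotides, 2.08 FPKM, chosen after its values were seen), both at 0 in input, lay at 0.957 and 1.10 times the lowest of 3 and 2 such RNAs. In CaCo-2, RP11-445N20.3 (222 nucleotides) was at 4.02 FPKM from an input of 0, which was 2.88 times the lowest of 3 such RNAs. The number of fragments behind these levels is unknown. CTD-2555O16.3 of CaCo-2 (230 nucleotides, chosen after its values were seen) had an input of 0 and 1.21 FPKM in the RIP, 1.09 times the lowest of 2. So 4 of these 5 short transcripts, from both lines, lay near the lowest level of the small RNAs of their size. RP11-445N20.3 lay above it. The median of the small RNAs was 25.9 FPKM beside CTC-246B18.10, 3.14 beside RP11-379F4.6 and 2.02 beside RP11-573G6.10. In CaCo-2 it was 1.43 beside RP11-445N20.3 and 1.70 beside CTD-2555O16.3. Sets of 2 or 3 RNAs give little ground to tell their lowest level from a typical one. Transcripts of other classes at these sizes were not compared.

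Among longer transcripts of HT-29 with the highest ratios, RP11-513I15.6 (ENST00000586726) was at 0 against 4.21 FPKM, RP11-108M9.4 at 0 against 3.88, AC131056.5 at 0 against 3.82 and CTB-151G24.1 at 0 against 3.56. RP11-220I1.1 was at 0 against 2.39. None of these genes has a function known well enough to state here. Their log2 ratios ran from 2.38 for RP11-513I15.6 to 1.76 for RP11-220I1.1. Their q in the authors' deposited table ran from 0.307 for CTB-151G24.1 to 0.752 for RP11-220I1.1.

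In CaCo-2 the leading transcript was C11orf95 (ENST00000338498, chromosome 11, 63531312 to 63533434), whose input was listed at 0 beside 7.30 FPKM in the RIP. RefSeq lists this gene as the protein-coding ZFTA, a zinc finger protein known from gene fusions in ependymoma. LINC00668 (chromosome 18, 6927305 to 6929961) followed at 0.436 against 7.73 FPKM, a log2 ratio of 2.60 and 17.7-fold in plain FPKM. It had the highest ratio in CaCo-2 among transcripts with input above 0, and the authors' deposited table gives it a q of 0.685. RP11-190J1.3 was at 0 against 3.39, RP11-498P14.4 at 0 against 2.93 and RP11-773D16.1 at 0 against 2.51. ERVK3-1, which derives from an endogenous retrovirus and is now listed as protein-coding, was at 0 against 2.74. LINC00969 (ENST00000445430), a gene that RefSeq names MIR570HG, had 0.0104 and 2.93 FPKM, a log2 ratio of 1.96. RP11-211G3.2, opposite a listed BCL6 transcript, was at 0 against 1.88 FPKM.

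Transcripts measured at 1 FPKM or more in both libraries give ratios that do not hang on an empty input. In HT-29 the 4 at 2-fold or more were RMRP, RP11-4K16.2 at 1.49 against 4.99 FPKM, AC004702.2 at 2.78 against 7.82, and LINC00992 at 1.57 against 4.47. Their log2 ratios, RMRP aside, were 1.26, 1.22 and 1.09. In CaCo-2 the 6 were AC004702.2, the MIR663A host transcript ENST00000608487, LINC00493, RP11-33B1.3, RP11-385D13.3 and RP11-497H16.9. LINC00493 (ENST00000411646) was at 2.02 against 6.94 FPKM there, a log2 ratio of 1.39. RP11-33B1.3 was at 2.74 against 7.27, RP11-385D13.3 at 1.04 against 3.40 and RP11-497H16.9 at 2.89 against 6.79. With log2 ratios from 1.14 for the first down to 1.0 for the last, these lay close to the threshold. AC004702.2 was the transcript found in both groups. Just below 2-fold in HT-29 lay RP11-108M9.6 at 1.13 against 3.07 FPKM and RAB30-AS1, divergent from RAB30, at 1.75 against 4.05. They were followed by GS1-124K5.3 at 1.44 against 3.47, AC013394.2 at 1.38 against 3.30, CTD-2521M24.9 at 1.21 against 2.97 and RP11-112J3.16 at 1.34 against 3.09. In CaCo-2, RP4-669L17.10 at 1.09 against 2.76 and CTD-2007L18.5, opposite a listed PPP6R3 transcript, at 1.18 against 2.80 had log2 ratios of 0.85 and 0.80. Each of these 8 was above 2-fold in plain FPKM.

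The same transcript was listed in both lines in 23 cases, which is 17.3% of the transcripts of HT-29 and 10.5% of those of CaCo-2. Over all transcripts, 1928 were in both tables, 19.5% and 16.1% of them. By gene name 36 were shared, 29.5% of the names in HT-29 and 18.3% of those in CaCo-2, and 13 of these were shared through different transcripts only. The tables were normalised separately, so ratios but not levels are set side by side. Of the 22 that passed the filter in both lines, 3 were at 2-fold or more in both (13.6%), against 30.0% of the 1784 transcripts of any class that passed in both. A further 4 were so in HT-29 alone, 4 in CaCo-2 alone and 11 in neither. In plain FPKM, 6 of the 17 with input above 0 in both lines were at 2-fold in both (35.3%, against 40.7% of 1072 transcripts of any class), namely AC004702.2, CTA-217C2.2, CTA-989H11.1, RP4-758J18.10, LINC00969 and MIR17HG.

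The 3 were RP6-206I17.1, AC007283.5 and AC004702.2. RP6-206I17.1 (chromosome 1, 143743240 to 143744355, minus strand) had inputs of 0 and RIP levels of 3.09 FPKM (HT-29) and 1.61 FPKM (CaCo-2). AC007283.5 (chromosome 2, 202031688 to 202032269, plus strand) had inputs of 0 too, with RIP levels of 1.34 and 1.79. Both therefore rest on inputs listed at 0 and on RIP levels within a few FPKM of the lowest in the tables.

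AC004702.2 (ENST00000580225, chromosome 17, 20088395 to 20226286, plus strand) differs in this respect. In HT-29 it went from 2.78 FPKM in input to 7.82, and in CaCo-2 from 7.74 to 24.5, which is 2.81-fold and 3.16-fold in plain FPKM. It was the single transcript past 2-fold in both lines among the 5 with at least 1 FPKM in all 4 libraries. Its q was 0.947 in HT-29 and 1 in CaCo-2 in the authors' deposited table. It overlaps, on the same strand, a protein-coding SPECC1 transcript listed in CaCo-2, so reads of the 2 genes may be hard to separate. The lack of another listed transcript over it in HT-29 does not show that SPECC1 is silent there.

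**Figure D4:**
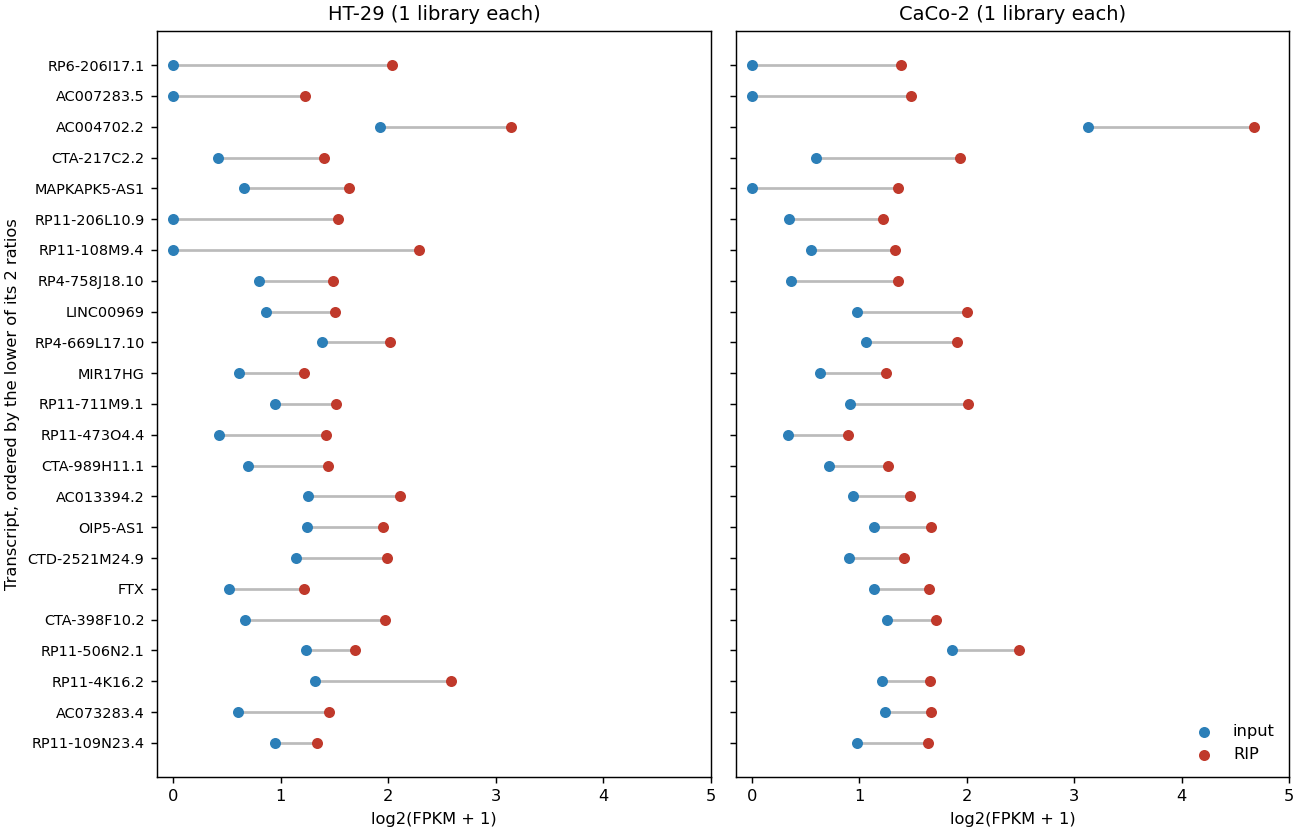
Levels of the 23 intergenic lncRNA transcripts listed in both lines, as log2 of FPKM plus 1 (x axis), in input (blue) and RIP (red) of HT-29 (left) and CaCo-2 (right), 1 library each, ordered by the lower of the 2 ratios. AC004702.2 has the highest levels in both lines, and most of the other transcripts lie between 0 and 2.5 on this scale.

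The other shared transcripts included some that are well known. OIP5-AS1 (ENST00000558945, chromosome 15, 41576188 to 41590979), a conserved lncRNA that binds miR-7, had 1.37 FPKM in the HT-29 input and 2.86 in its RIP, then 1.2 and 2.18 in those of CaCo-2, with log2 ratios of 0.70 and 0.53. MIR17HG (ENST00000400282, chromosome 13, 92000074 to 92006833) was at 0.527 against 1.32 and 0.552 against 1.37 FPKM. Its log2 ratios, 0.61 and 0.61, were the most alike of these genes. MAPKAPK5-AS1, transcribed opposite the kinase gene MAPKAPK5, had 0.572 and 2.09 FPKM in the libraries of HT-29, then 0 and 1.57 in those of CaCo-2. In HT-29 its log2 ratio of 0.98 lay just under the threshold, and in CaCo-2 it was 1.36. LINC00969 (ENST00000446521) had 0.814 and 1.83 FPKM in HT-29, and its CaCo-2 input of 0.966 stood beside a log2 ratio of 1.02.

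Across the 23, the ratio was higher in HT-29 for 12, and the rank correlation of the 2 ratios was 0.097, against 0.313 over all 1928 shared transcripts. These values describe a narrow range, since both tables hold only transcripts past a minimum fold. CTA-217C2.2 (chromosome 22, 45551420 to 45551892) lay just under 2-fold in the first line and above it in the second, with log2 ratios of 0.98 in HT-29 (0.332 against 1.64 FPKM) and 1.33 in CaCo-2 (0.518 against 2.83). RP11-4K16.2 showed the opposite case, with a log2 ratio of 1.26 in HT-29 and 0.45 in CaCo-2. Counted by gene, with the transcript of highest RIP level for each, 7 of 33 genes were at 2-fold in both lines: the 3 above and CTC-228N24.3, GMDS-AS1, LINC00969 and RP11-513I15.6. For those 4 the transcript differed between the lines. CTC-228N24.3 and RP11-513I15.6 had inputs of 0 in both lines. GMDS-AS1 had an input of 0 in HT-29 and 0.00142 FPKM in CaCo-2. A share by gene over all listed transcripts was not computed, so this count has nothing to be read against.

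The list of colorectal cancer or Wnt lncRNAs held 28 genes. For this list and those below, only transcripts of deposited class lincRNA were searched. A gene counted as not listed may thus be present under another class. In HT-29 5 of them were listed, by 7 transcripts, of which 5 were at 2-fold or more (56.0% of all listed transcripts were), 2 from an input of 0, with a median log2 ratio of 1.17 against 1.14 for all listed transcripts. In CaCo-2 5 genes were listed by 7 transcripts, 6 passed the filter and 2 were at 2-fold or more, against 40.8% of all that passed, both from an input of 0. Their median was 0.76 against 0.82. With so few transcripts these counts are not read as a difference from the tables. The lists were drawn up with earlier results of these data known. The antisense lncRNA RBM5-AS1, or LUST, of the series title is on the list. It had no transcript of class lincRNA in either line, and other classes were not searched for it.

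CRNDE, a lncRNA named for its expression in colorectal neoplasia, was listed by 3 transcripts in HT-29 that overlap over nearly their whole span on chromosome 16. ENST00000502066 (54952782 to 54962708) had 0.000838 FPKM in input and a RIP level of 4.67. ENST00000560912 was at 0 against 1.53, and ENST00000501177 at 1.47 against 2.24. The ratios of the same gene thus ran from 0.40 to 2.50, and the transcript with the highest input had the lowest. In CaCo-2 CRNDE was listed by ENST00000559432 at 0 against 0.842 FPKM, which is below the filter.

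PVT1, which lies beside MYC, was at 0.919 against 2.07 FPKM in HT-29, a log2 ratio of 0.68. In CaCo-2 it was listed by 3 transcripts, at 0 against 1.31, 0 against 1.19 and 0.638 against 1.07. Again the entry with measurable input, ENST00000523068, had the lowest ratio, 0.34. LINC01133 was at 0.318 against 1.96 in HT-29, a log2 ratio of 1.17. UCA1, a lncRNA first described in bladder cancer, had 1.68 FPKM in the RIP of HT-29 from an input of 0, and PCAT1 1.63 from 0.302, both listed there alone and named beyond the rule for named genes. In CaCo-2, LINC00152 was at 0.263 against 1.22 FPKM, CASC19 at 0.393 against 1.29 and LINC00511 at 0.568 against 1.26. These 3 stayed below 2-fold with the pseudocount of 1, and were at 4.64-fold, 3.28-fold and 2.21-fold in plain FPKM.

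Of 15 chromatin-retained or X-inactivation lncRNAs, 2 were among the intergenic lncRNAs of HT-29 and 3 among those of CaCo-2. JPX, an activator of X-inactivation by way of XIST, was listed in HT-29 by 2 long transcripts at 0 against 1.92 and 0 against 1.89 FPKM. In CaCo-2 a shorter JPX transcript (ENST00000415215) was at 0.464 against 1.28, a log2 ratio of 0.64. FTX, another lncRNA of the X-inactivation centre, was listed by ENST00000418855 in both lines, with 0.434 and 1.33 FPKM in the libraries of HT-29, then 1.2 and 2.14 in those of CaCo-2. Its other transcripts, ENST00000455395 in HT-29 and ENST00000430772 in CaCo-2, were at 0.762 against 1.82 and 0.682 against 1.19. A further one in CaCo-2, ENST00000603672, was at 0.462 against 0.979 and below the filter. With a pseudocount of 1 each FTX transcript was below 2-fold and both JPX transcripts of HT-29, with inputs of 0, were above it, so HT-29 had 2 of 4 past it (56.0% over all) and CaCo-2 had 0 of 4 (40.8% over all). In plain FPKM the FTX transcripts of HT-29 were at 3.06-fold and 2.38-fold, and that of CaCo-2 shared with HT-29 at 1.78-fold. TP53TG1, a p53-induced lncRNA, was at 0.328 against 1.65 FPKM in CaCo-2, just under 2-fold at a log2 ratio of 0.99 and at 5.02-fold in plain FPKM. Medians of these lists were 1.12 in HT-29 over 4 transcripts and 0.57 in CaCo-2 over 4.

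Of 18 microRNA host genes, HT-29 had 2 listed and CaCo-2 had 3, and 1 of 2 and 0 of 2 transcripts that passed the filter reached 2-fold, where the shares over all were 56.0% and 40.8%. MIR22HG was at 0 against 1.91 FPKM in HT-29. MIR210HG, host of the hypoxia-induced miR-210, was at 0.960 against 2.58 in CaCo-2, and MIR4435-1HG at 0 against 0.916, below the filter. Medians were 1.07 in HT-29 over 2 transcripts and 0.74 in CaCo-2 over 2. The list was not complete. It left out the MIR663A host and FTX, LINC00969 and LINC01057, within which RefSeq also places microRNA hairpins. The log2 ratios of LINC00969 ran from 0.64 to 1.43 in HT-29 and from 0.55 to 1.96 in CaCo-2. LINC01057 was at 0.72 in HT-29 and 1.10 in CaCo-2, there from an input of 0, and FTX stayed below 2-fold in both lines. Of 11 liver and gut lincRNAs, 1 was listed per line and passed 2-fold in each, LINC00992 in HT-29 and LINC00668 in CaCo-2, beside the same shares over all. Neither was among the intergenic lncRNAs of the other line.

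Most of the intergenic lncRNAs are little studied. Names based on a genomic clone were carried by 72.2% in HT-29 (96 of 133) and by 79.1% in CaCo-2 (174 of 220), and LINC names by 16 and 15. By symbol or synonym, 37 and 43 transcripts matched a RefSeq gene of GRCh38.p14. RefSeq classes 34 in each line as lncRNA and 2 and 7 as protein-coding. A symbol ending in -DT, for a transcript divergent from a neighbouring gene, was carried by 5 in each line, among them RAB30-AS1, now RAB30-DT. TERC, the telomerase RNA, had 0.807 FPKM in input and 1.81 in the RIP of CaCo-2, and its name was picked with its values known. The deposited class thus holds some transcripts that RefSeq now assigns to other kinds of RNA.

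Overlap of coordinates was counted only with transcripts of another gene name listed in the same table. It was found for 11 of the 133 in HT-29 (8.27%) and 18 of the 220 in CaCo-2 (8.18%), on the same strand for 5 and 4. Genes that are not listed cannot count, so these shares do not show that the other transcripts are intergenic. The share was not computed for other classes. In the authors' tables each transcript also has a locus, the stretch of genome analysed as a unit. The locus equalled the transcript's own span for 22.6% in HT-29 and 26.8% in CaCo-2, against 5.46% and 3.82% of all listed transcripts and 3.38% and 2.93% of antisense ones. Most intergenic lncRNAs thus had a locus wider than the transcript, which can hold other transcripts of the same gene as well as other genes. The median genomic span, introns included, was 3303 nucleotides in HT-29 and 3389 in CaCo-2, against 17854 and 19115 for protein-coding transcripts. Antisense transcripts had similar medians, 2912 and 2794, so a short span was not particular to intergenic lncRNAs.

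By chromosome, the intergenic lncRNAs of CaCo-2 were most numerous on chromosome 2, with 29 of 220 (13.2%), where 7.30% of all listed transcripts lay. In HT-29 chromosome 2 held 5 of 133 (3.76%, against 6.61%), so the higher share was not seen in both lines. In HT-29 chromosome 1 led with 18 of 133 (13.5%, against 9.05%), followed by chromosome 19 with 14 (10.5%, against 7.03%). Both strands were used about equally, with 63 of 133 and 112 of 220 transcripts on the plus strand.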

How the data were processed

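RNA was measured in 4 libraries, input and beta-catenin RIP of HT-29 and CaCo-2, 1 per group. Per the submitters' processing notes, which give no roles or order, the build was hg19 and the tools were Cuffdiff, Cufflinks, TopHat2 2.0.8, Bowtie2 and CASAVA 1.4. Strandedness is not given in the sources used here. The authors deposited 1 table per line, with FPKM per Ensembl transcript, normalised by them, and their own p-values and q-values from 1 library per side. The deposited log2 fold equals the ratio of the FPKM columns and is not used where input is 0. Deposited starts count from 0, since 5 of 5 and 9 of 11 microRNA hairpins then have their RefSeq length, and 1 was added. The number of unmapped columns of per-sample values was 0.

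From these, the log2 ratio of RIP to input, each FPKM raised by a pseudocount of 1, was computed with Python 3.11.15, pandas 2.3.3 and SciPy 1.17.1. The pseudocount understates the ratio of low transcripts. The filter was 1 FPKM in at least 1 library and the threshold 2-fold. The calculation was tested on simulated data made with the same pseudocount and without noise, which checks the arithmetic only. The members and lists were chosen with earlier results of these data known. Named were transcripts at 2-fold in both lines, the 10 highest ratios and 5 highest RIP levels per line, those with authors' q at or below 0.05, the 10 highest ratios with 1 FPKM in both libraries, and up to 4 transcripts per list. The shared transcripts and those said to be so were named beyond this rule, as were some in counts of 5 or fewer.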

Additional observations from a re-analysis of the deposited data

How the results depend on the processing

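The counts and medians depend most on the pseudocount and on transcripts with little or no input. With a pseudocount of 0.1, 97 transcripts in HT-29, 120 in CaCo-2 and 11 in both lines were at 2-fold or more, with medians of 1.55 and 1.45. With 0.5 the counts were 82 in HT-29, 89 in CaCo-2 and 7 in both lines, and the medians were 1.14 and 1.04. Without a pseudocount and over inputs above 0, chosen after seeing the data, the count in both lines was 6 and the medians were 1.28 and 1.23. For each line with 0.1, and without a pseudocount, the share relative to all listed transcripts changed too, as given in the results above. For the count of 11 in both lines and for the counts with 0.5, the share over all listed transcripts was not computed. With at least 1 FPKM in both libraries the counts were 4, 6 and 1, with medians of 0.58 and 0.62. Without transcripts at input 0 they were 17, 21 and 1, with medians of 0.72 and 0.67. Counted as 1 transcript per gene name, 7 of 33 genes were at 2-fold in both lines, with no share over all genes to set beside them. A smaller pseudocount raises every ratio and filters leave fewer transcripts, by construction. Without a filter, without spans under 200 nucleotides, without overlapped transcripts, and, chosen after seeing the data, without genes that RefSeq lists as protein-coding, RNase MRP or telomerase RNA, the counts stayed within 1.5 times and the medians within their 95% binomial intervals. Of 65 named ratios, 20 moved past 2-fold with a pseudocount of 0.1 and 11 with 0.5, and 0 dropped below it. No paired analysis was possible because the results come from no test and the groups share fewer than 2 replicate numbers. A fit of RIP against input with the line as a block was not run, since the tables hold only transcripts higher in the RIP. Depth, and so the number of fragments behind a level, is unknown.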
